A study of Mus musculus with 10 samples.

Results

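The 10 genes described here are the chemokine and chemokine receptor genes Ccl1, Ccl3, Ccl4, Ccl5, Ccr2, Ccr4, Ccr7, Ccr8, Cxcr4 and Cxcr6, chosen by name among the 54838 genes of the count table. They were read in RNA of type 2 innate lymphoid cells (ILC2) from the lungs of mice in which papain, a plant protease, had set off lung inflammation. There were 5 libraries from wild-type (WT) mice and 5 from mice without the transcription factor c-Maf (KO). Both groups were of the C57BL/6 strain, were cohoused and littermates, and were sorted by the same gate, which took lin- CD90.2+ cells with or without ST2 and KLRG1. The labels do not state the allele, any Cre driver, the cells that lost c-Maf, the age of the mice or how many mice gave each library. They do not say in words that each library came from a separate mouse, so the p-values below measure the spread between these libraries.

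ILC2 are tissue-resident lymphocytes without antigen receptors that answer alarm signals from the epithelium with type 2 cytokines. Chemokines are small secreted proteins that guide migrating leukocytes, and they act through receptors with a heptahelical fold that signal by G proteins. CCL1 is a ligand of CCR8, and CCL17 and CCL22 are ligands of CCR4. CCL2 is the main ligand of CCR2, CXCL12 is that of CXCR4 and CXCL16 that of CXCR6. CCL19 and CCL21 are the ligands of CCR7. CCL3, CCL4 and CCL5 are inflammatory chemokines that draw leukocytes into tissue.

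Upstream sequences are shown for Ccl1, Ccr8 and Ccr4, a ligand, its receptor and a further receptor, because their levels set single KO libraries apart below. RefSeq upstream windows (build GRCm38.p6) matched 7 of the 10 members, Ccl1, Ccl3, Ccr2, Ccr4, Ccr8, Cxcr4 and Cxcr6, and did not match Ccl4, Ccl5 and Ccr7. Each window held up to 250 bases before the RefSeq start, read 5′ to 3′ on the strand of the gene, with any base in an annotated exon removed. Capitals mark a match to a GATA motif (AGATAA or its reverse complement TTATCT) or to an AP-1 motif (TGANTCA), the only motifs of the 3 searched that occurred in these windows. The windows lay at chr11:82179813-82180062 on the minus strand for Ccl1, at chr9:120091883-120092113 on the plus strand for Ccr8, and at chr9:114496563-114496794 on the minus strand for Ccr4.
Ccl1: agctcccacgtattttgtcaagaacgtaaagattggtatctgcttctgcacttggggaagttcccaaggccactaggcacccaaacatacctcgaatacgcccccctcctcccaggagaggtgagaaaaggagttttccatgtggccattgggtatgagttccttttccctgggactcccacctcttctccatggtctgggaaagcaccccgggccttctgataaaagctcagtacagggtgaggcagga
Ccr8: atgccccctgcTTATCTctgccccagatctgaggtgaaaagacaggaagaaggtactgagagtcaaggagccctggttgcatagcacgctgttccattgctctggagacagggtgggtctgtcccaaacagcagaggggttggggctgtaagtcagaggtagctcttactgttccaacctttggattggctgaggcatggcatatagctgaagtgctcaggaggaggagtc
Ccr4: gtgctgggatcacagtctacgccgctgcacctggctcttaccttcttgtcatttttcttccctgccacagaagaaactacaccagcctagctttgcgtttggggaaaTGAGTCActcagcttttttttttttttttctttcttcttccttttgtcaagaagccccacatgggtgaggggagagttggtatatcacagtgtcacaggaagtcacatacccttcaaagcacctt
The MAF core motif TGCTGA, or TCAGCA on the other strand, was in none of the 7 matched windows, and was in 16.1% of 32851 windows of 250 bases before RefSeq starts. The Ccr8 window held 1 GATA match, a motif in 9.99% of those windows, and the Ccr4 window held 1 AP-1 match, a motif in 6.75%. The Ccl1 window held none of the 3 motifs. A match is a description of letters and not a binding site, and the absence of a match says only that the letters are not in that window. The searches covered both strands, and the Ccr2 window was reduced to 17 bases by the removal of exons.

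The libraries differed in ways that touch every value below. WT libraries held 21400938 to 24489987 counts and KO libraries 3620002 to 9867580. CPM are counts per 1000000 counts of a library, by total counts or by library sizes scaled with TMM factors. WT mean levels that set a range of genes, here and below, were TMM-scaled. Of 6507 genes at 5 or more such CPM in WT, 0.261% to 2.67% had 3 counts or fewer in a given WT library. In a given KO library 54.1% to 81.6% did. Maf itself, the gene of c-Maf, had 1412 to 3832 counts in the WT libraries, 108 in KO library 4 and 0 in the other 4 KO libraries. Marker sums here and below are by total counts unless said otherwise. All 11 ILC2 markers were detected. Their sum was 6540 to 10300 CPM in WT and 749 to 15100 CPM in KO, lowest in KO library 1. With TMM scaling it was 3490 to 5620 CPM in WT and 4190 to 20500 CPM in KO. Erythroid markers summed to 9.1 to 25 CPM in WT and to 120 to 190000 CPM in KO, highest again in KO library 1, although the gate was lineage-negative. In these bulk libraries fewer cells of a type and less RNA per cell cannot be told apart.

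Of the 10 members, 8 were read in at least 1 library. Cxcr6 lies inside Fyco1, a gene of the other strand, and had 0 counts throughout. Of 848 protein-coding genes placed wholly inside a gene of the other strand, 841 (99.2%) had no count in any library, against 40.2% of 11721 genes that overlap no gene, so Cxcr6 was treated as not measured. Ccl4, which overlaps no annotated gene, was also listed at 0 in all 10 libraries. WT libraries held 7 or 8 members at more than 3 counts, and KO libraries held 4, 4, 5, 4 and 5.

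Across all genes, edgeR's quasi-likelihood test with TMM scaling called 112 of 7490 tested genes higher in KO (1.5%) and 2027 lower (27.1%) at a Benjamini-Hochberg adjusted p under 0.05. Of the 7 members tested, 0 were called higher and 1, Ccr7, was called lower; the other 6 did not pass. At an unadjusted p under 0.05, edgeR likewise had 0 members higher and 1 lower. By adjusted p, DESeq2 called 1 member higher and 0 lower (3 and 0 by unadjusted p), where 13.5% and 23.3% of all genes were called. Limma-voom called 0 and 1 (0 and 3 by unadjusted p), where 0.948% and 33.2% of all genes were called. The 1 member was Ccr4 in place of Ccr7. The members' share of lower calls with edgeR, 14.3%, was not above that of all genes. The members' median log2 fold change, KO against WT, was 1.13, and that of all genes tested was -0.47. With limma-voom these medians were -2.35 and -3.58, and without KO libraries 1 and 5 they were -2.09 and -2.52. Ccl3 did not pass the filter on low counts. Without KO libraries 1 and 5, which had the fewest counts, 1 member (Ccl1) was called higher and 2 (Ccr4 and Ccr7) lower, where 3.53% and 33.4% of all genes were called. With no filter the 1 member called lower was Ccl3 in place of Ccr7, where 15.9% of all genes were called lower.

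Among the ligands, Ccl1, made by activated T cells and ILC2, had the highest KO levels. It had 430, 1297, 1319, 866 and 2498 counts in WT libraries 1 to 5, and 0, 4732, 467, 4041 and 169 counts in KO libraries 1 to 5. On the TMM-scaled CPM scale these were 12.3, 29.0, 39.6, 19.2 and 56.8 in WT and 0, 710, 64.0, 576 and 74.0 in KO. KO libraries 2 and 4 were far above every WT library, KO library 1 had none, and KO libraries 3 and 5 were just above the WT range. The WT mean was 31.4 ± 17.6 CPM and the KO mean 285 ± 332 CPM (SD, n = 5 each). The difference did not pass edgeR's test, with a log2 fold change of 3.18 (SE 1.63, adjusted p = 0.177). It passed without KO library 1 (3.52, adjusted p = 0.0361), without KO libraries 1 and 5 (3.82, adjusted p = 0.0157) and with DESeq2 (3.42, adjusted p = 0.0251). Scaled by total counts alone, KO libraries 2 and 4 were at 521 and 410 CPM against a WT range of 17.9 to 107, and KO libraries 3 and 5, at 54.0 and 46.7, were inside that range. Ccl1 was 81.6% of all member counts in KO library 2 and 32.2% in KO library 4, against 2.06% to 8.33% in WT.

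The annotated Ccl1 gene spans chr11:82176657-82305690 on the minus strand. Its 2 coding transcripts lie within 3156 bases at one end of that span, and a long non-coding transcript accounts for the rest. The counts cannot be divided between the coding and the long transcript.

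Ccl5, a chemokine of T cells and natural killer (NK) cells (chr11:83525778-83530518, minus strand), was read in every WT library. It had 238, 963, 1535, 2604 and 375 counts in WT and 11, 0, 28, 2 and 0 counts in KO. TMM-scaled levels were 6.82, 21.5, 46.1, 57.6 and 8.53 CPM in WT and 12.9, 0, 3.83, 0.285 and 0 CPM in KO. KO libraries 2 to 5 lay below every WT library, whereas KO library 1 lay inside the WT range; by total counts alone the groups did not overlap, with 2.31 CPM in KO library 1 and 9.89 CPM in the lowest WT library. The log2 fold change was -3.11 (SE 1.73, edgeR adjusted p = 0.217), which did not pass. It was -5.33 with adjusted p = 0.0377 when libraries were scaled by total counts alone. An exact two-sided permutation test of the 2 means of log2(CPM + 1) gave p = 0.0238 on TMM-scaled values and p = 0.00794, the smallest that 5 against 5 allows, on values scaled by total counts. Such tests were run on 8 members only, with no adjustment, so the share of all genes that reach such a p is not known. By total counts the median log2 fold change of all genes tested was -1.77.

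Ccl5 had 3 counts or fewer in 3 KO libraries. Of 1695 genes with WT means of 20 to 50 CPM, the range that held Ccl5, 70.6% were missing to that degree in at least 3 KO libraries. WT libraries 3 and 4, highest in Ccl5, also had the highest summed NK cell and ILC1 markers, at 47.0 and 38.4 CPM, against 5.13 to 25.3 CPM in the other WT libraries; the defining genes Tbx21, Klrb1c, Eomes and Ncr1 were at 0 everywhere. The part of these cells in the Ccl5 level was not tested.

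Ccl3, an inflammatory chemokine of macrophages and activated lymphocytes (chr11:83647844-83649355, minus strand), was read in 3 libraries only. It had 171, 172 and 72 counts in WT libraries 2, 3 and 4, and 0 in the other WT libraries and in every KO library. Pooled over the KO group, 0 counts allow up to 0.124 CPM at a floor of 3 counts, at least 16.5-fold below the pooled WT level. This bound holds for the pool only. In single KO libraries the floor was 0.304 to 0.829 CPM by total counts, against a WT mean of 3.6 CPM on that scale. Of 2987 genes with WT means of 1 to 5 CPM, the range of Ccl3, 64.0% had 3 counts or fewer in all 5 KO libraries. Groups overlapped, since WT libraries 1 and 5 were at 0 as well, and the exact permutation test gave p = 0.167. In the alternatives that tested Ccl3, its edgeR adjusted p was 0.0375 with no filter on low counts and 0.0823 without KO libraries 1 and 5, and DESeq2 gave an adjusted p of 0.132. Summed macrophage and dendritic cell markers were 384, 325 and 2980 CPM in WT libraries 2, 3 and 4, against 28.9 and 3.25 CPM in WT libraries 1 and 5 and 0.22 to 6.52 CPM in KO. Of these markers 2 were tested with edgeR and both fell. Cd68, Itgax and Cd14 were at 0 in KO and Fcgr1 at 0 everywhere, and their part in the Ccl3 reads was not tested.

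**Figure D1:**
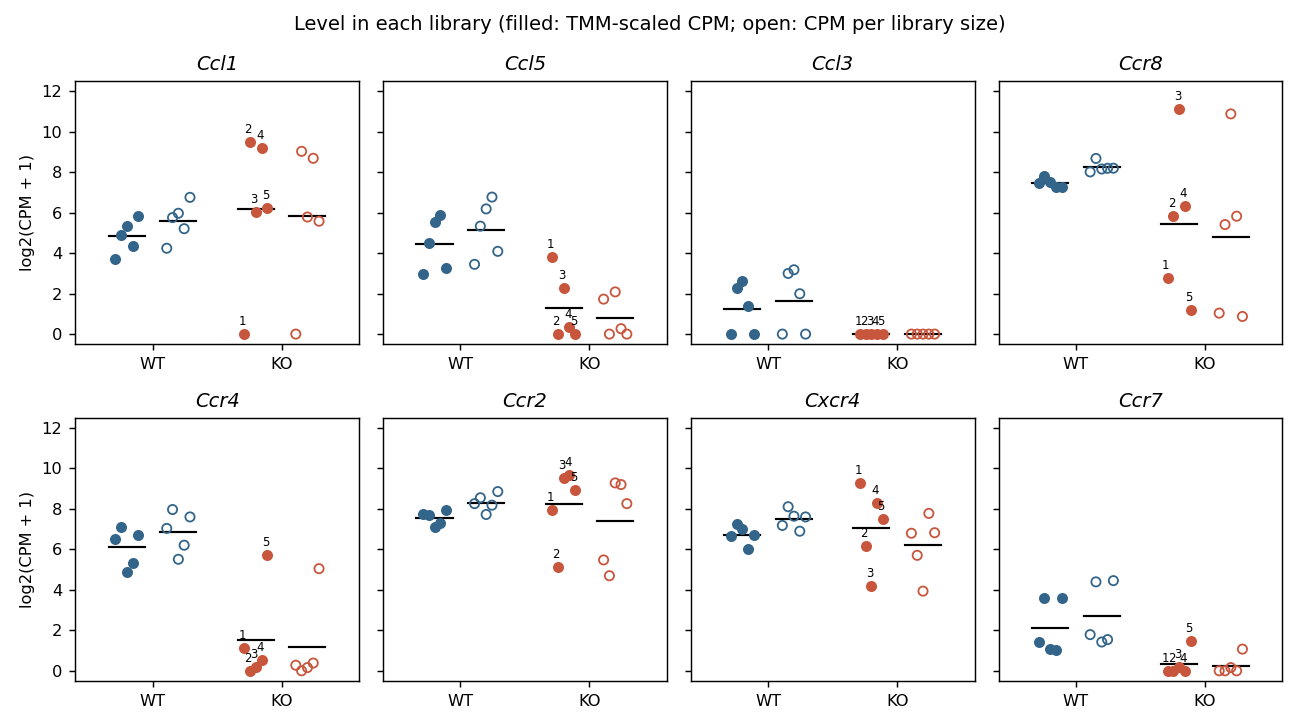
Level of the 8 members read in at least 1 library, 1 panel a gene, as log2(CPM + 1) on the vertical axis for the 5 WT and 5 KO libraries. Filled points are TMM-scaled, open points are scaled by total counts alone, bars are means of the plotted log2 values, and numbers name KO libraries; Ccr8 stands at 2230 CPM in KO library 3 and at 78.3 CPM or less in the other KO libraries.

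Among the receptors, Ccr8 was the steadiest member in WT. Ccr8 marks type 2 helper cells, regulatory T cells of tissues and ILC2 (chr9:120092114-120094906, plus strand). Its counts were 6175, 9982, 6069, 7012 and 6826 in WT and 5, 377, 16307, 549 and 3 in KO. TMM-scaled levels were 177, 223, 182, 155 and 155 CPM in WT and 5.88, 56.6, 2230, 78.3 and 1.31 CPM in KO. The highest WT library was 1.44 times the lowest, the smallest ratio of the 7 members read in every WT library. KO libraries 1, 2, 4 and 5 lay below every WT library and KO library 3 lay above every one, under both scalings.

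KO library 3 held 94.6% of the 17241 Ccr8 counts of the KO group, and Ccr8 was 73.1% of all member counts in that library. The log2 fold change was 1.41 (SE 1.54, edgeR adjusted p = 0.563), set by a mean of 475 ± 983 CPM over KO libraries against 179 ± 27.8 over WT (SD, n = 5 each). Without KO library 3 the KO mean was 35.5 CPM and the log2 fold change -2.31 (adjusted p = 0.214), and limma-voom gave -2.35 (adjusted p = 0.238) with all libraries. The 2 means of log2(CPM + 1) differed by -2.02 (KO minus WT, exact permutation p = 0.286), so fold change and mean log2 level differed in sign. Among 414 genes with WT means of 100 to 200 CPM, 68.4% had 3 counts or fewer in at least 1 KO library, as Ccr8 did. For KO library 5, where Ccr8 had 3 counts, the share was 14.5%. It was 57.0% for KO library 1, where Ccr8 had 5 counts.

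KO library 3, highest in Ccr8, was not the library highest in Ccl1, the gene of a ligand of CCR8. Ccl1 and Ccr8 were at 64.0 and 2230 CPM in KO library 3, and at 710 and 56.6 CPM in KO library 2. In KO library 4 they were at 576 and 78.3 CPM. In the 5 WT libraries Ccl1 lay at 12.3 to 56.8 CPM and Ccr8 at 155 to 223 CPM.

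Ccr4, the receptor of CCL17 and CCL22 on type 2 helper cells and ILC2 (chr9:114490316-114504916, minus strand), was high in WT and near 0 in 4 KO libraries. Counts were 3131, 6104, 953, 1754 and 4510 in WT and 1, 0, 1, 3 and 116 in KO. TMM-scaled levels were 89.7, 136, 28.6, 38.8 and 103 CPM in WT and 1.18, 0, 0.137, 0.428 and 50.8 CPM in KO. KO library 5 lay inside the WT range on this scale and below it, at 32.0 against 44.5 CPM, when scaled by total counts; the other 4 KO libraries lay below every WT library on both.

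The edgeR log2 fold change of Ccr4 was -2.92 (SE 1.89, adjusted p = 0.3) and did not pass. Without KO library 5 it was -7.65 (adjusted p = 0.00946), without KO libraries 1 and 5 it was -8.73 (adjusted p = 0.00859), and with limma-voom it was -6.05 (adjusted p = 0.0167). The exact permutation test of mean log2(CPM + 1) gave p = 0.0238 with TMM scaling and p = 0.00794 with total counts. Of 837 genes with WT means of 50 to 100 CPM, 10.8% had 3 counts or fewer in at least 4 KO libraries, as Ccr4 did.

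Ccr7, the receptor that guides lymphocytes and dendritic cells to lymph nodes (chr11:99144196-99155077, minus strand), was low in WT and the single member that passed. Counts were 59, 491, 36, 46 and 489 in WT and 0, 0, 1, 0 and 4 in KO, or 1.69, 11.0, 1.08, 1.02 and 11.1 TMM-scaled CPM against 0, 0, 0.137, 0 and 1.75. WT libraries 2 and 5 were highest, and KO library 5 alone of the KO libraries reached the lower WT values on this scale. Ccr7 fell by 3.94 on the log2 scale (SE 1.42, edgeR adjusted p = 0.045), and pooled over each group its CPM was 26.8 times higher in WT (95% counting interval 11.4 to 82.6). The call was lost with RLE scaling (adjusted p = 0.134), DESeq2 (0.164), limma-voom (0.106) and no filter on low counts (0.0928). It was lost too without WT library 2 (0.0822) or 5 (0.0896), and without KO library 1 (0.124), 2 (0.117), 3 (0.127) or 4 (0.113).

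Without KO library 5, Ccr7 fell by 6.68 with edgeR adjusted p = 0.00794. The exact permutation test on Ccr7 gave p = 0.0317 with TMM scaling and p = 0.00794 with total counts. Of 3265 genes with WT means of 5 to 20 CPM, 74.9% had 3 counts or fewer in at least 4 KO libraries. WT libraries 2 and 5 also had the highest summed T cell markers, 214 and 222 CPM. The other WT libraries had 77.4 to 150 CPM and the KO libraries 0.661 to 113 CPM. Of these markers, Cd8a and Cd8b1 were at 0 everywhere and Cd3d at 0 in KO. By total counts, WT libraries 2 and 5 were likewise the highest WT libraries in summed ILC2 markers, at 10300 and 9580 CPM. The other WT libraries had 8080 CPM or less. WT libraries 2 and 5 were also highest in summed B cell markers by total counts, at 74.4 and 172 CPM, against 63.9 CPM or less. TMM scaling changed both orders. With it, WT library 1 came above WT library 5 in ILC2 markers and above WT library 2 in B cell markers. The part of T cells, B cells or ILC2 in the Ccr7 values was not tested.

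Ccr2 and Cxcr4 were the members present above 3 counts in all 10 libraries. Ccr2, which draws monocytes and lymphocytes to sites of CCL2 release (chr9:124101950-124113557, plus strand), had 7342, 9128, 4501, 6959 and 10788 counts in WT and 207, 226, 5376, 5790 and 1103 in KO. TMM-scaled levels were 210, 204, 135, 154 and 245 CPM in WT and 244, 33.9, 736, 825 and 483 CPM in KO. KO libraries 3, 4 and 5 lay above every WT library, KO library 1 inside the WT range and KO library 2 below it. Means were 190 ± 44.7 and 464 ± 331 CPM (SD, n = 5 each), with a log2 fold change of 1.29 (SE 1.16, edgeR adjusted p = 0.473). Scaled by total counts the log2 fold change was 0.03 (adjusted p = 0.989), with means of 328 ± 94.5 CPM in WT and 316 ± 285 CPM in KO.

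Cxcr4, the receptor of CXCL12 that holds leukocytes in bone marrow (chr1:128588199-128592293, minus strand), had 3471, 6719, 4241, 2842 and 4514 counts in WT and 524, 464, 124, 2154 and 404 in KO. TMM-scaled levels were 99.4, 150, 127, 62.9 and 103 CPM in WT and 616, 69.6, 17.0, 307 and 177 CPM in KO. KO libraries 1, 4 and 5 lay above every WT library, KO library 3 below every one and KO library 2 inside the range. Means were 109 ± 32.8 and 237 ± 239 CPM (SD, n = 5 each), a log2 fold change of 1.13 (SE 1.28, edgeR adjusted p = 0.58). By total counts alone the order turned, with 4 KO libraries below every WT library and a log2 fold change of -0.83 (adjusted p = 0.712). In KO library 1, the library with the highest erythroid markers, Cxcr4 was 70.1% of member counts, against 12.8% to 22.5% in WT.

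Of the 414 genes with WT means of 100 to 200 CPM, the range that held Ccr2 and Cxcr4, 31.6% were above 3 counts in every KO library. For neither gene was a direction shared by all KO libraries. Exact permutation tests of mean log2(CPM + 1) gave p = 0.5 for Ccr2 and p = 0.73 for Cxcr4 with TMM scaling, and p = 0.421 and p = 0.0873 with total counts; for Ccl1 they gave p = 0.444 and p = 0.952.

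**Figure D2:**
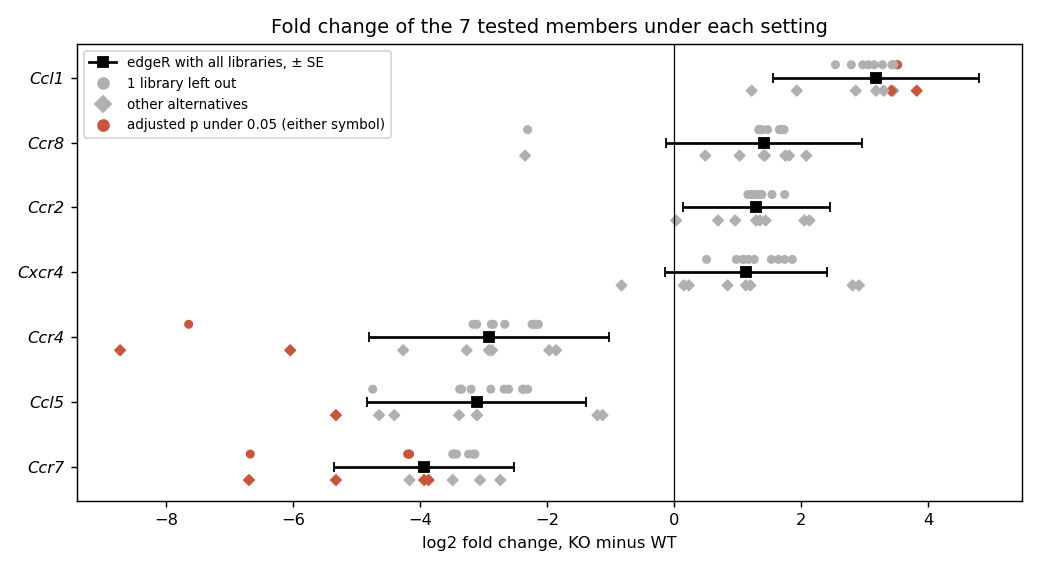
Log2 fold change, KO minus WT (horizontal axis), of the 7 tested members: squares with bars are edgeR with all libraries ± SE, circles have 1 library left out, diamonds are other alternatives, and red marks an adjusted p under 0.05. Ccr8 spans -2.35 to 2.08 and Cxcr4 -0.83 to 2.91, crossing 0, whereas Ccr7 (-6.7 to -2.74), Ccr4 (-8.73 to -1.86), Ccl5 (-5.33 to -1.13) and Ccl1 (1.22 to 3.82) keep their sign.

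Levels between members were compared per kilobase of exon, TMM-scaled, in WT. Ccr8 was highest at 152 ± 23.7 CPM per kilobase, followed by Cxcr4 at 60.0 ± 18.1, and Ccr8 was above Cxcr4 in 5 of 5 WT libraries. Ccl5 (29.3 ± 23.7), Ccr2 (28.1 ± 6.6) and Ccr4 (25.6 ± 14.6 CPM per kilobase) came next and did not differ beyond their spread. Cxcr4 was above Ccl5 in 4 of 5 libraries, Ccl5 above Ccr2 in 2, and Ccr2 above Ccr4 in 4. Ccl1 followed at 13.2 ± 7.42 CPM per kilobase, below Ccr4 in 4 of 5 libraries and above Ccl3 in 5 of 5. Ccl3 (2.76 ± 3.02) and Ccr7 (2.62 ± 2.71) were lowest, within their spread of each other (all SD, n = 5). Divided by the whole gene span in place of exon length, Ccl1 moved to the last place at 0.243 ± 0.136 CPM per kilobase, since its annotated span is 129034 bases.

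In KO, levels per kilobase of exon were 404 ± 837 for Ccr8, 131 ± 132 for Cxcr4, 120 ± 140 for Ccl1 and 68.7 ± 49.0 CPM per kilobase for Ccr2. They were 3.56 ± 5.81 for Ccl5, 3.39 ± 7.27 for Ccr4 and 0.191 ± 0.39 CPM per kilobase for Ccr7 (SD, n = 5). In this order each neighbouring pair except Ccr2 and Ccl5 lay within its spread.

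**Figure D3:**
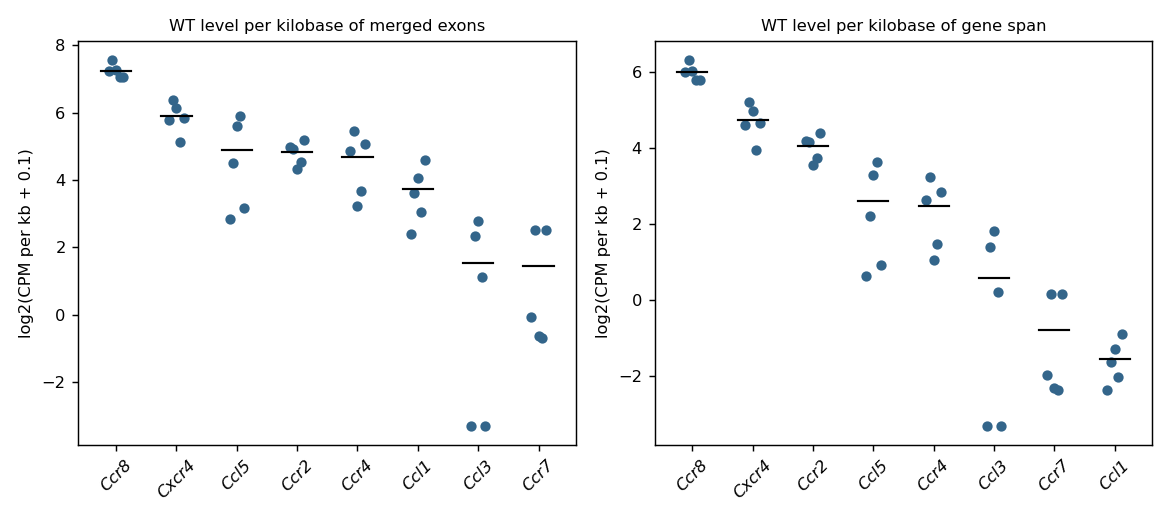
Level of the 8 members read in the 5 WT libraries (points; lines are means), as log2 of TMM-scaled CPM per kilobase plus 0.1, with length taken as merged exons on the left and as the whole gene span on the right. Ccr8 stands above Cxcr4 in every WT library on the left, and Ccl1 moves to the last place on the right.

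The spread within WT separated the members as well. The coefficient of variation over the 5 WT libraries was 15.6% for Ccr8, 23.5% for Ccr2 and 30.2% for Cxcr4. It was 56.0% for Ccl1, 56.9% for Ccr4, 81.0% for Ccl5, 104% for Ccr7 and 109% for Ccl3. The 3 genes with the lowest variation were receptors at WT means of 109 CPM or more, and the other members, at lower WT means, varied more.

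Log2(CPM + 1) of each gene was centred on its own WT mean. By root mean square difference over the 10 libraries, among 3493 genes, those nearest to Ccr8 were Rbmx (0.71) and Vps28 (0.74). Those nearest to Cxcr4 were Dmxl1 and Wdr26 (both 0.77), and those nearest to Ccl5 were Elob (0.88) and Cd3g (0.95), a T cell receptor complex gene. These profiles share the depth and scaling of the libraries.

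Other chemokine genes were read in part. Of 33 further ligand genes (35 entries of the table), 16 entries had any count and 3 passed the filter for edgeR. Of the 19 entries at 0, 8 lie inside a gene of the other strand and count as not measured, and 2 had no match in the annotation. With edgeR 0 passed in either direction, and 1 was higher at an unadjusted p under 0.05. DESeq2 and limma-voom called 0. Of all genes, edgeR called 1.5% higher and 27.1% lower. The median log2 fold change of the 3 was 0.65 with edgeR and -0.14 with limma-voom. Cxcl2, a neutrophil attractant, had mean levels of 111 ± 32.8 (WT) and 175 ± 168 CPM (KO; log2 fold change 0.65, edgeR adjusted p = 0.774). Cxcl3, its close relative, was at 12.0 ± 11.5 and 7.79 ± 17.1 CPM (-0.60, adjusted p = 0.833; without KO library 4, which held nearly all KO counts, -6.23 and 0.00747). Ccl24 and Ccl8, both eosinophil attractants, had 330 and 119 counts over the WT group and 0 over the KO group, and did not pass the filter. With no filter the edgeR adjusted p was 0.0419 for Ccl24 and 0.0992 for Ccl8; for Ccl24 it was 0.078 without KO libraries 1 and 5, and 0.119 with DESeq2.

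Of the other ligands of the member receptors, those measured had few or no counts. Cxcl16 had 388 counts over WT and 0 over KO, Cxcl12 14 and 0, and Ccl22 2 and 1. Ccl17, Ccl7 and Ccl12 were listed at 0 in every library. Ccl2, Ccl19 and Ccl21a, the main ligand of CCR2 and the ligands of CCR7, lie inside genes of the other strand and, like Cxcr6, were not measured.

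Of 16 further receptor genes, 9 had any count and 3 passed the filter for edgeR; 2 of the 7 at 0 lie inside a gene of the other strand. With edgeR 0 rose, also at an unadjusted p under 0.05, and 1 fell, and limma-voom gave the same counts. DESeq2, which fitted all 9, called 2 higher and 2 lower. Of all genes, edgeR called 1.5% higher and 27.1% lower, limma-voom 0.948% and 33.2%, and DESeq2 13.5% and 23.3%. The median log2 fold change of the 3 was 0.98 with edgeR and -1.70 with limma-voom. Xcr1, the receptor of XCL1, had 743 counts over WT and 0 over KO, at least 29.6-fold lower (edgeR adjusted p = 0.00163). It kept its call under every alternative run. Of the 2987 genes with WT means of 1 to 5 CPM, the range of Xcr1, 64.0% had 3 counts or fewer in all 5 KO libraries. Ccr1 and Ccr3, receptors of CCL5 among others, had 1277 and 722 counts over WT and 0 over KO and did not pass the filter. In the 9 alternatives that tested Ccr1 it passed in each, with adjusted p of 0.00127 to 0.0269 (edgeR without WT library 1 and without KO libraries 1 and 5), and 0.0119 with DESeq2. Ccr1 had counts in WT libraries 2 to 5 alone. In the filtered fits it was tested only where a library was left out. These tests therefore add no support beyond its 0 counts in KO. Of genes with WT means of 5 to 20 CPM, the range of Ccr1, 39.2% had 3 counts or fewer in all 5 KO libraries. Ccr3, in the range of Xcr1, had an edgeR adjusted p of 0.0286 with no filter and 0.102 with DESeq2.

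Ccrl2, a chemerin-binding receptor, had mean levels of 18.7 ± 10.7 (WT) and 167 ± 320 CPM (KO). Its log2 fold change was 3.16 (edgeR adjusted p = 0.247). With DESeq2 it was 5.32 (adjusted p = 0.00811), and with library size alone 0.41 (edgeR adjusted p = 0.902). Cx3cr1, the fractalkine receptor, overlaps 9 annotated genes and was at 5.31 ± 4.61 and 10.4 ± 22.9 CPM (0.98, adjusted p = 0.728; without KO library 3 -5.01 and 0.0267).

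Among 37 genes of chemokine receptor signalling, 35 were tested. With edgeR 0 rose, 1 at an unadjusted p under 0.05, and 4 fell. DESeq2, which fitted 31, called 6 higher and 5 lower, where 13.5% and 23.3% of all genes were called. Limma-voom called 0 and 7, where 0.948% and 33.2% of all genes were called. The share that fell with edgeR, 11.4%, was below the 27.1% of all genes. The median log2 fold change was 0.84 with edgeR and -1.23 with limma-voom. Plcb2, a phospholipase C downstream of Gi-coupled receptors, had 2219 counts over WT and 0 over KO, at least 88.3-fold lower (edgeR adjusted p = 0.00163). Plcb3, a related enzyme, had 5258 and 3 counts, a CPM ratio of 209 (95% counting interval 71.5 to 1010, adjusted p = 0.00727). The receptor-silencing genes Arrb2, of beta-arrestin, and Grk2, of a receptor kinase, fell as well. Arrb2 had 4936 and 1 counts (ratio 589, interval 106 to 23300, adjusted p = 0.00163), and Grk2 had 8553 and 11 (log2 fold change -6.78, SE 1.86, adjusted p = 0.00876). Arrb2 and Plcb3 each overlap 1 other annotated gene, so their counts are uncertain. Loss from KO libraries was common at such levels: 39.2% of genes with WT means of 5 to 20 CPM, the range of Plcb2, had 3 counts or fewer in all 5 KO libraries. Of genes at 20 to 50 CPM, the range of Arrb2, Plcb3 and Grk2, 13.3% did so in all 5, as Arrb2 and Plcb3 did, and 41.8% in at least 4, as Grk2 did.

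Signalling genes of high level did not pass. Rgs2, which shortens G protein signals, had mean levels of 664 ± 130 (WT) and 2210 ± 2720 CPM (KO). Its log2 fold change was 1.73 (edgeR adjusted p = 0.236). With DESeq2 it was 3.58 (adjusted p = 0.0147), and with library size alone -0.38 (edgeR adjusted p = 0.813). Rac2, a GTPase of leukocyte migration, was at 358 ± 76.6 and 1030 ± 1050 CPM (1.52, adjusted p = 0.46; without KO libraries 1 and 5 1.95 and 0.0401). Msn, of the membrane linker moesin, was at 1110 ± 406 and 1720 ± 1600 CPM (0.63, adjusted p = 0.699), and Cfl1, of the actin-severing cofilin, at 320 ± 161 and 315 ± 443 CPM (-0.02, adjusted p = 0.994).

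**Figure D4:**
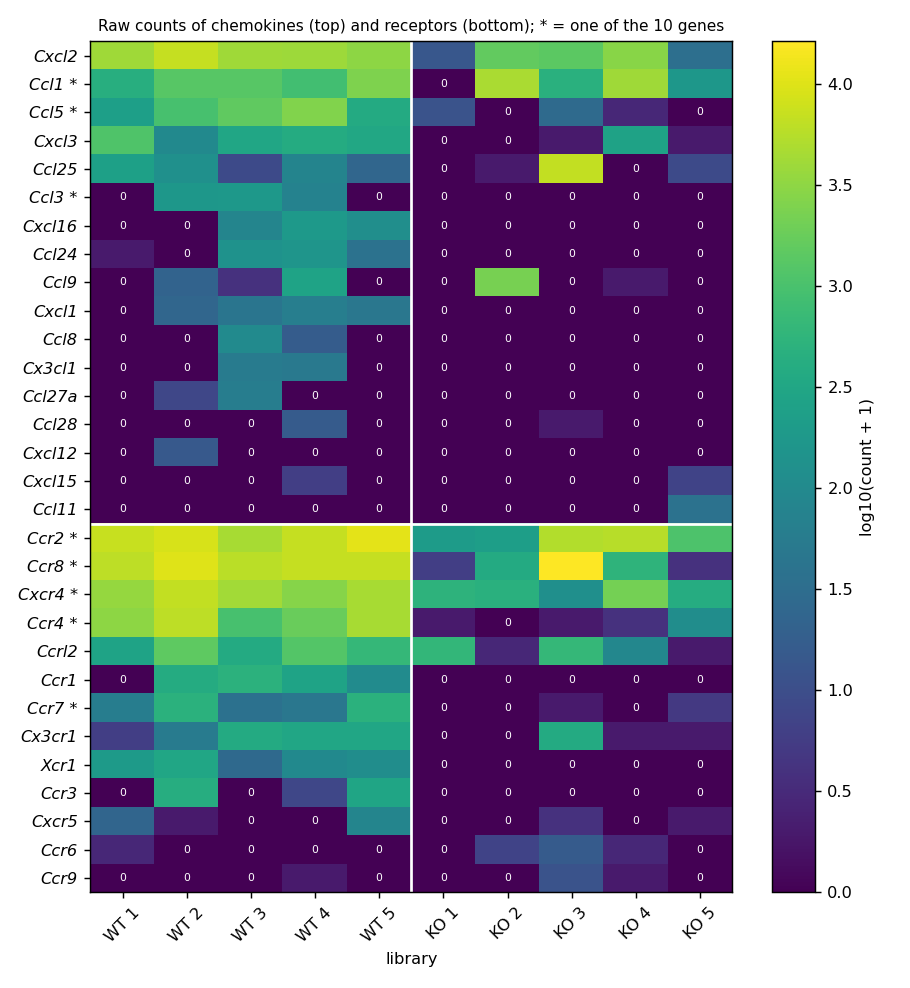
Raw counts of chemokine genes (upper block) and receptor genes (lower block) in the 5 WT and 5 KO libraries, coloured by log10(count + 1), with 0 printed where a library had no count and an asterisk at the members. Xcr1 and Ccr1 are among the genes with counts in WT and 0 in every KO library, whereas Cxcl2, Ccr2, Ccr8, Cxcr4 and Ccrl2 have counts in all 10 libraries.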

How the data were processed

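Strand-specific total RNA libraries (Illumina TruSeq Stranded total RNA, per the labels' protocols) of 5 WT and 5 KO samples of sorted lung ILC2 were analysed. The deposited values are raw read counts per gene, 1 column a library, not normalized. STAR 2.6.0c, SAMtools 1.8, HTSeq 0.9.1 and GRCm38 are named in the submitters' processing notes; for the annotation release and the strand setting of the counting, the sources used here give nothing. Of 54838 gene identifiers, 54723 matched GENCODE M21, from which positions and lengths were taken. Totals per library were 3620002 to 24489987 counts, so 0 counts allow up to 0.122 to 0.14 CPM in a WT library and 0.304 to 0.829 CPM in a KO library, at a floor of 3 counts and with library-size scaling. Intervals and floors cover counting error only.

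Genes were kept by filterByExpr (minimum count 10), scaled by TMM and tested with edgeR 4.0.16 (R 4.3.3, quasi-likelihood). P-values were adjusted by Benjamini-Hochberg over all 7490 genes, with a threshold of 0.05. The procedure was tested on simulated data. That simulation gave every gene the same dispersion, so it does not cover the uneven KO libraries here. WT libraries had TMM factors of 1.46 to 1.91 and KO libraries of 0.18 to 0.928. Library-size values or tests are therefore given beside TMM values for members where they differ. Single members were also compared by an exact two-sided permutation test of mean log2(CPM + 1) (scipy 1.17.1). Alternatives were DESeq2 1.42.0, limma-voom 3.58.1, RLE or library-size scaling, no filter, a robust fit, leaving out globin, mitochondrial, ribosomal and small RNA genes, and leaving out libraries.

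The members and lists were chosen with earlier results of these data known, and 1 gene of the receptor list is not reported here. Genes named besides the members were, in each list, those that passed (up to 8) and the 4 with the highest WT level per length, and for the 3 members highest in WT the 2 genes nearest in profile over the 10 libraries, among genes of at least 20 CPM. Library numbers follow the order of deposit within each group and pair nothing; in the labels' titles every KO number is above every WT number, so anything tied to those numbers cannot be told apart from genotype.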

Additional observations from a re-analysis of the deposited data

Results flagged for a closer look

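In 43 combinations of a gene and a group, the highest or lowest library was compared with its nearest neighbour by Dixon's ratio. The ratio marked a library far from the other 4 in 12 of them. For normally spread values its critical value marks about 1 in 20 groups by chance. The levels here were not log-scaled and often at 0, where 1 library with counts gives a high ratio. The 12 marks can therefore not be set against that share. Among the members these were Ccr8 in KO library 3 (2230 TMM-scaled CPM), Ccr4 in KO library 5 (50.8 CPM) and Ccr7 in KO library 5 (1.75 CPM), each above the other KO libraries. Among receptors and ligands outside the members they were Ccrl2 in KO library 1 (735 CPM), Cx3cr1 in KO library 3 (51.4 CPM), Cxcl3 in KO library 4 (38.4 CPM) and in WT library 1 (31.9 CPM), and Ccl8 in WT library 3 (3.09 CPM). Among signalling genes they were Rgs2 in KO library 1 (6960 CPM), Cfl1 in KO library 4 (1090 CPM), Grk2 in KO library 2 (1.35 CPM) and Arrb2 in KO library 2 (0.15 CPM, from 1 count). Of the 12, 10 were in KO libraries, spread over all 5 of them. The ratios used TMM-scaled levels alone, and KO library 1 had the lowest TMM factor, 0.18, which raises its levels. Rgs2 had 5913 of 4757345 counts in KO library 1 and 13172 of 9867580 in KO library 4. Ccrl2 had 625 counts in KO library 1, and 644 of 8652132 counts in KO library 3. Levels scaled by total counts were not examined by this ratio.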

How the results depend on the processing

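The number of genes called higher in KO (112 with edgeR) was 193 with RLE scaling, 49 with library size alone, 1512 with DESeq2, 71 with limma-voom, 2345 with no filter on low counts and 348 without KO libraries 1 and 5, and 82 to 333 when 1 library was left out. The number called lower (2027) was 3291 without KO libraries 1 and 5 and 1734 to 3350 when 1 library was left out. Lower calls were 94.8% of all calls with edgeR, 90.4% with RLE, 97.9% with library size alone, 63.3% with DESeq2 and 56.3% with no filter. The median log2 fold change of all genes tested was -0.47 with TMM, 0.093 with RLE and -1.77 with library size alone.

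Members called higher (0) were 1 with DESeq2, 1 without KO libraries 1 and 5, and 0 to 1 when 1 library was left out. Members called lower (1, Ccr7) were 1 with no filter, where it was Ccl3, and 1 with limma-voom, where it was Ccr4. They were 0 with RLE scaling, 0 with DESeq2, 2 with library size alone, 2 without KO libraries 1 and 5, and 0 to 2 when 1 library was left out. Of 125 alternatives of the member fold changes, 105 kept the direction and the side of the threshold, 7 passed it anew, 10 (all Ccr7) lost it and 3 reversed. Reversals were Ccr8 with limma-voom (-2.35) and without KO library 3 (range over left-out libraries -2.31 to 1.73), and Cxcr4 with library size alone (-0.83). The differences of mean log2 level behind the permutation tests also turned for Ccr2 (p = 0.421) and Cxcr4 (p = 0.0873) with library size alone, in an exact test. DESeq2 gave no adjusted p for Ccr8.

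For the other named genes, 211 alternatives kept direction and side, 4 passed anew and 19 reversed. These were Cxcl2 with library size alone (-0.51) and limma-voom (-0.14), Rgs2 (-0.38) and Msn (-0.61) with library size alone, and Cx3cr1 with limma-voom (-1.70) and over left-out libraries (-5.01 to 1.42). Cxcl3 was at 0.06 without KO libraries 1 and 5 and at -6.23 to 0.15 over left-out libraries. Cfl1 was at 0.89 with RLE, 0.83 with DESeq2, 0.08 without globin, mitochondrial, ribosomal and small RNA genes, 0.34 without KO libraries 1 and 5 and -0.98 to 0.39 over left-out libraries. For all of these the cause was not tested. No paired analysis was possible because the library numbers follow deposit order and tie no WT library to a KO library. In KO libraries, differences between members at or under 3 counts were not detectable at this depth.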

Other observations

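A pair of ligands outside the rule for named genes, singled out after their values were seen, were high in a single KO library. Ccl25, a chemokine of thymus and gut whose gene overlaps 1 other annotated gene, had 247, 131, 8, 78 and 24 counts in WT and 0, 1, 6708, 0 and 8 in KO, in library order (log2 fold change 6.20, edgeR adjusted p = 0.0903). KO library 3 thus held nearly all its KO counts, the library that also held most Ccr8 counts. Ccl9, a macrophage inflammatory chemokine, had 0, 21, 3, 278 and 0 counts in WT and 0, 2258, 0, 1 and 0 in KO, where KO library 2 held all but 1 count; that library also had the highest Ccl1 level.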
